A study of Rattus norvegicus with 8 samples.

Results

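Messenger RNA levels of 9 heme pathway enzymes were followed in the liver of 21-day-old male Sprague-Dawley rats. They are Alas1 and Alas2, which open the pathway, Alad, Uros, Urod, Cpox, Ppox and Fech, which carry it to heme, and Hmox1, which breaks heme down. They were chosen by name from the pathway, not by their values, and each has 1 probe named through RefSeq accessions. Probes without such a name were not searched for these genes. They make up 9 of 27530 genes or unnamed probes, and 7 of the 9 gave enough signal to be tested. The 0.5MAhR group came from dams that received organochlorine pesticides, polychlorinated biphenyls and methyl mercury in corn oil at 0.5 mg/kg/day, plus aryl hydrocarbon receptor (AhR) agonists, namely non-ortho polychlorinated biphenyls, polychlorinated dibenzodioxins and dibenzofurans, which brought the dioxin toxic equivalents to 6.3 ng/kg/day. Control dams had corn oil with nothing added. Treatment ran from gestation day 0 to postnatal day 20, and pups of both groups stayed with their own mothers. Each group had 8 pups, pooled at random in pairs to give 4 arrays, here called 0.5MAhR pools 1 to 4 and Control pools 5 to 8. Pool numbers name samples only. The sources used here do not give the litter of each pup. The p-values therefore cover variation among pools, which may come from few litters. The AhR agonists alone and the other mixtures were part of the wider study of 72 arrays and were not analysed here, so the agonists and the rest of the mixture cannot be told apart.

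Heme, an iron-bearing porphyrin, is made by a chain of enzymes that starts and ends in mitochondria and passes through the cytosol. In hepatocytes most new heme goes into cytochromes P450, and the entry enzyme ALAS1 sets the rate: heme represses it, and drugs raise its transcription through the nuclear receptors CAR (constitutive androstane receptor) and PXR (pregnane X receptor). ALAS2 does the same reaction in erythroid cells for hemoglobin. Dioxin-like and polyhalogenated compounds are classical causes of porphyrin accumulation in rodent liver, through loss of uroporphyrinogen decarboxylase (UROD) activity, which need not involve its transcript. Heme oxygenase 1, the product of Hmox1, is an inducible enzyme of stressed cells and of macrophages that recycle red cells.

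The starts of the genes are shown here for both ends of the synthesis chain, since transcription factors can act there. No CAR or PXR element was searched for, and elements farther from the start are not covered. RefSeq promoter windows (GRCr8) were found for 7 members, all but Cpox and Hmox1. The window ran from 250 bases before to 20 bases after the annotated start. Both strands were searched for GCGTG, the core bound by the activated AhR, AGATAA, bound by GATA factors, the core of nuclear respiratory factor 1 (NRF1) sites, and TGACNNNGC, the antioxidant response element. Capitals mark matches, and in Alas1 the GCGTG match lies inside the first NRF1 match. Alas1 lies at chr8:115768623-115768892 and Fech at chr18:60248506-60248775, both on the minus strand and printed 5′ to 3′ along the gene.
Alas1: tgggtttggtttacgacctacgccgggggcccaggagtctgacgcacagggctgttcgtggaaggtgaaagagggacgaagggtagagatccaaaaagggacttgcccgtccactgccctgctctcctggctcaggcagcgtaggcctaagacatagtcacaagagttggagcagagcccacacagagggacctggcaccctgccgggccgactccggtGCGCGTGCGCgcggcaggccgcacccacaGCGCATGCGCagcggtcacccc
Fech: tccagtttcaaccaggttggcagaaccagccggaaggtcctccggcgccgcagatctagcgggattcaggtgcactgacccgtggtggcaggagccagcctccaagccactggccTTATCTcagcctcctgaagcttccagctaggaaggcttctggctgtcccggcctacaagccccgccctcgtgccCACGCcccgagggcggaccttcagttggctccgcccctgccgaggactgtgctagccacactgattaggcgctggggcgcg
The Alas1 window held the NRF1 core at 2 places, beginning 31 and 2 bases before the start, and 4.06% of 33469 promoters of the same length held a match. GCGTG occurred in 4 of the 7 windows (Alas1, Alad, Uros and Fech), against 27.5% of all promoters. AGATAA occurred in those of Alas2 and Fech, against 10.8% of all. TGACNNNGC occurred in 0 of the 7, against 10.9% of all. The Alas2 window may not lie at the erythroid start, since its last bases read like coding sequence, so its AGATAA match may lie outside the promoter. These matches are descriptions of letters and say nothing of binding in these livers.

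No heme enzyme passed the test for a difference between 0.5MAhR and Control livers. Each array carried liver RNA in Cy5 and a common reference in Cy3, made from 14 rat cell lines, and the level of a gene is its log2 ratio of Cy5 to Cy3. Ratios to the reference carry an unmeasured dye bias, shared by both groups, so levels are compared between groups and not between genes. Differences are 0.5MAhR minus Control on the log2 scale, from limma with slide column in the fit. Of the 7 tested enzymes 0 passed an adjusted p of 0.05 and 0 had an unadjusted p under 0.05, against 0.0473% (5 of 10567) and 6.35% of all genes tested. Without slide column in the fit 0 of the 7 passed as well, against 0.00946% of all genes. The groups overlapped for all 9 enzymes, while 1.32% of all genes tested did not overlap. The median difference was 0.072 over the 7 enzymes and -0.0079 over all genes tested, with 5 enzymes higher and 2 lower. The 95% interval was widest for Alas1 and reached at most 0.37 on the high side for the other enzymes tested.

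**Figure D1:**
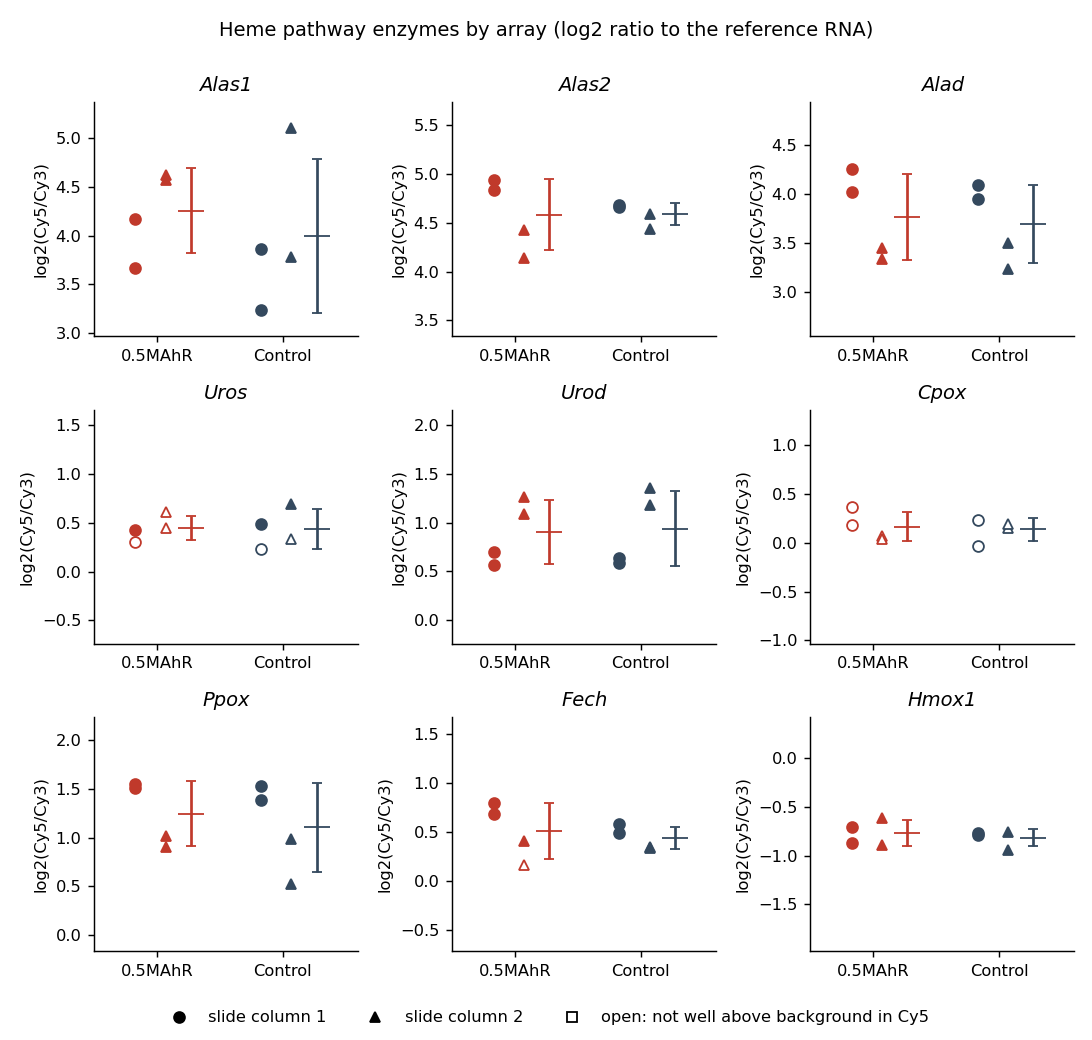
Log2 ratio of liver (Cy5) to reference RNA (Cy3) for each heme enzyme on each of the 8 arrays, with 0.5MAhR left of Control. Circles are slide column 1, triangles slide column 2, open symbols are spots not well above background, and bars give the mean ± SD of 4 arrays. The groups overlap in every panel, and circles and triangles separate for Alas2, Alad, Urod, Ppox and Fech.

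All 8 arrays shared 1 slide, whose 2 columns each held 2 arrays per group. Arrays correlated with r of 0.981 to 0.991 within a column and 0.938 to 0.962 between columns, and 57% of genes differed between columns. Slide column was therefore a term in the fit. The share of Cy5 spots well above background was 42.9% to 49.2%, and no spot of a heme enzyme was saturated. Hepatocyte markers bore out the tissue label: all 15 listed genes were measured, at a median log2 ratio of 7.197 in Control livers. All 15 were lower in 0.5MAhR livers (median difference -0.15), against 5627 of 10567 of all genes tested. Of the 15, 0 passed the threshold and 3 had an unadjusted limma p under 0.05, against 6.35% of all genes tested. The groups did not overlap for 1 of the 15, against 1.32% of all. The mean log2 ratio over the list was 6.31 to 6.61 on 0.5MAhR arrays and 6.51 to 6.67 on Control arrays. The part of the hepatocyte markers in the results below was not tested. In bulk liver, fewer cells of a type and less RNA per cell cannot be told apart.

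Alas1, the hepatic entry enzyme, varied widely among Control livers. Its log2 ratio was 4.57, 3.67, 4.62 and 4.17 in 0.5MAhR pools 1 to 4, against 3.86, 5.10, 3.24 and 3.78 in Control pools 5 to 8. Control pool 6 was the highest of all arrays and Control pool 7 the lowest, so that the control values bracketed every 0.5MAhR value. The means were 4.26 ± 0.44 (SD, n = 4) in 0.5MAhR livers and 3.996 ± 0.787 (SD, n = 4) in Control livers, which is 19.1 and 15.95 times the reference signal. The difference was 0.26 (SE 0.26, limma adjusted p = 0.923), or 1.199-fold with a 95% interval of 0.799 to 1.80. That interval takes in both a lower and a clearly higher Alas1 level. Within slide column 1 the groups differed by 0.37, and within column 2, which held Control pool 6, by 0.15. Without Control pool 6 the difference over both columns was 0.55 (SE 0.18, adjusted p = 0.699), and without Control pool 8 it was 0.019.

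Alas2, the erythroid entry enzyme, is encoded on the X chromosome and also carries an iron-responsive element in its messenger RNA. Its log2 ratio was 4.14, 4.83, 4.42 and 4.94 in 0.5MAhR pools 1 to 4, against 4.66, 4.43, 4.68 and 4.59 in Control pools 5 to 8. All control values lay between the lowest and the highest 0.5MAhR value. The means were 4.58 ± 0.37 (SD, n = 4) in 0.5MAhR livers and 4.59 ± 0.11 (SD, n = 4) in Control livers, about 24 times the reference signal in each. The difference was -0.0050 (SE 0.11, limma adjusted p = 0.996), with a 95% interval of 0.843 to 1.18 for the fold. It was 0.22 within column 1 and -0.23 within column 2. Whether the columns differ in this was not tested.

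Erythroid transcripts were read beside Alas2 because weanling liver holds blood and may hold remaining erythroid cells. Of 29 listed markers 24 had a named probe and 10 were tested. Of these 10, 8 were higher and 2 lower in 0.5MAhR livers, with a median difference of 0.11. Of the 10, 0 passed the threshold and 0 had an unadjusted limma p under 0.05, against 6.35% of all genes tested. The beta-globin Hbb differed by 0.15 (0.42 in column 1, -0.12 in column 2), the red cell anion exchanger Slc4a1 by 0.23 (0.66 and -0.20) and the alpha-globin chaperone Ahsp by 0.17 (0.40 and -0.070). Of the 10 markers, 8 were higher in column 1 and lower in column 2, the signs seen for Alas2. The other 2 were higher in both columns, namely the red cell enzyme Bpgm (0.16 and 0.082) and the alpha-globin Hba-a3 (0.032 and 0.53). Hba-a3 was named after its values were seen. The signs of Alas2, higher in column 1 and lower in column 2, were also those of other genes. They occurred in 3 of the 7 heme enzymes (Alas2 included), 9 of 19 heme-using genes, 5 of 15 hepatocyte markers and 4 of 13 macrophage markers. The share over all genes was not counted, and a link between Alas2 and the erythroid markers was not tested. Globin probes can share signal with near-identical paralogs. The mean log2 ratio over the 10 markers was 3.91 to 4.28 on 0.5MAhR arrays and 3.87 to 4.30 on Control arrays. The erythroid transcription factors Gata1 and Klf1 were among 12 listed markers that stayed below that detection limit on all arrays.

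The cytosolic steps follow. Alad, whose product joins aminolevulinate units to porphobilinogen and is the lead-sensitive enzyme of the pathway, had log2 ratios of 3.33, 4.02, 3.45 and 4.26 in 0.5MAhR pools 1 to 4, against 4.10, 3.24, 3.95 and 3.50 in Control pools 5 to 8. In both groups the column 1 arrays were the high ones, and the groups interleaved. Alad differed by 0.072 (SE 0.088, limma adjusted p = 0.932), with a 95% interval of 0.917 to 1.21 for the fold.

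Uros, which closes the porphyrin ring, was at the edge of detection. It was well above background on 1 of 4 0.5MAhR arrays (pool 4) and on 2 of 4 Control arrays (pools 7 and 8), and so was not tested. Its net Cy5 signal, spot minus local background, was 18.0 to 34.0 intensity units on 0.5MAhR arrays and 15.2 to 38.0 on Control arrays. Its mean log2 ratio was 0.45 ± 0.12 (SD, n = 4) in 0.5MAhR livers and 0.44 ± 0.20 (SD, n = 4) in Control livers.

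Urod, the decarboxylase whose loss of activity marks dioxin-type porphyria, was measured on all arrays. Its log2 ratio was 1.09, 0.56, 1.26 and 0.70 in 0.5MAhR pools 1 to 4, against 0.58, 1.35, 0.63 and 1.18 in Control pools 5 to 8. Here the column 2 arrays were the high ones in both groups. The means were 0.90 ± 0.33 (SD, n = 4) in 0.5MAhR livers and 0.94 ± 0.39 (SD, n = 4) in Control livers. The difference was -0.033 (SE 0.077, limma adjusted p = 0.962), and its fold interval of 0.867 to 1.101 was the narrowest of the 7 tested enzymes. Urod activity and porphyrins were not measured here.

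The last steps return to mitochondria. Cpox, coproporphyrinogen oxidase, was well above background on 0 of 8 arrays, in Cy5 and in Cy3 alike. Its net Cy5 signal was 5.0 to 19.2 units on 0.5MAhR arrays and 3.5 to 13.0 on Control arrays, and no fold is given. Ppox, which oxidises protoporphyrinogen, had log2 ratios of 0.91, 1.55, 1.01 and 1.51 in 0.5MAhR pools 1 to 4, against 1.53, 0.52, 1.38 and 0.98 in Control pools 5 to 8. Control pool 6, the highest array for Alas1, was the lowest for Ppox. Ppox differed by 0.14 (SE 0.10, limma adjusted p = 0.897), the smallest p of the 7 tested enzymes at an unadjusted 0.203.

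Fech, which inserts iron into protoporphyrin, gave a weak signal. Its net Cy5 signal was 19.0 to 60.2 units on 0.5MAhR arrays, with pool 1 not well above background, and 28.8 to 43.8 on Control arrays. The log2 ratio was 0.16, 0.69, 0.41 and 0.79 in 0.5MAhR pools 1 to 4, against 0.49, 0.34, 0.58 and 0.34 in Control pools 5 to 8. The control values lay inside the range of the 0.5MAhR values, as they did for Alas2. Fech differed by 0.075 (SE 0.086, limma adjusted p = 0.926). The column 1 value was 0.21 and the column 2 value -0.057.

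Hmox1, the inducible heme oxygenase, was below the reference signal on every array. Its log2 ratio was -0.89, -0.70, -0.62 and -0.87 in 0.5MAhR pools 1 to 4, against -0.77, -0.76, -0.78 and -0.94 in Control pools 5 to 8. The values of both groups lay within a narrow band, and Hmox1 was also the only tested member whose log2 ratio did not differ between slide columns past the threshold. Its probe has 10 spots on each array, against 2 for the other members. The means were -0.77 ± 0.13 (SD, n = 4) in 0.5MAhR livers and -0.81 ± 0.086 (SD, n = 4) in Control livers. The difference was 0.045 (SE 0.085, limma adjusted p = 0.952), with a 95% interval of 0.904 to 1.18 for the fold.

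Kupffer cells, the liver macrophages that take up aged red cells, are known to express Hmox1. Of 16 listed macrophage markers 13 were tested, 11 of them higher and 2 lower in 0.5MAhR livers. Of the 13, 0 passed the threshold and 2 had an unadjusted limma p under 0.05, against 6.35% of all genes tested. The median difference was 0.15. The natural resistance protein Slc11a1 differed by 0.20 and the macrophage receptor Adgre1 by 0.37. The mean log2 ratio over the 13 was 2.24 to 2.65 on 0.5MAhR arrays and 2.11 to 2.42 on Control arrays. Of lymphocyte and neutrophil markers 6 of 15 were tested, 1 higher and 5 lower, 0 past the threshold, with a mean log2 ratio of 0.064 to 0.16 on 0.5MAhR arrays and -0.0058 to 0.37 on Control arrays.

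Slide column separated the heme enzymes. Of the 7 tested enzymes 6 differed between columns past the adjusted threshold, beside 57% of all genes tested. In column 2 relative to column 1, Alas1 was higher by 0.78 (limma adjusted p = 0.0280) and Urod higher by 0.60 (adjusted p = 0.000163). Alad fell by 0.70 (adjusted p = 0.000148), Ppox fell by 0.64 (adjusted p = 0.000612), Alas2 fell by 0.38 (adjusted p = 0.0133) and Fech fell by 0.32 (adjusted p = 0.00990). The steps of the pathway therefore moved in opposite directions between columns. For Alad, Urod, Ppox, Fech and Alas1 the difference was found in the liver channel: in Cy5 alone it was -0.72, 0.52, -0.71, -0.25 and 0.66, each past the threshold. For Alas2 it was 0.0061 in Cy5 and 0.32 in Cy3, past the threshold (adjusted p = 0.000194), so that its column difference lay in the reference channel. The net Cy3 signal of Alas2 was weak, at 61.5 to 97.2 units, though well above background on 8 of 8 arrays. The Cy3 signal also differed past the threshold for Alas1 (-0.099), Urod (-0.077), Ppox (-0.13) and Hmox1 (-0.11). Cy5 and Cy3 differed between columns for 59.7% and 38.2% of all genes tested. Between the treatment groups the Cy3 signal of the 7 enzymes differed by -0.045 to 0.085, with adjusted p of 0.999 for each.

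**Figure D2:**
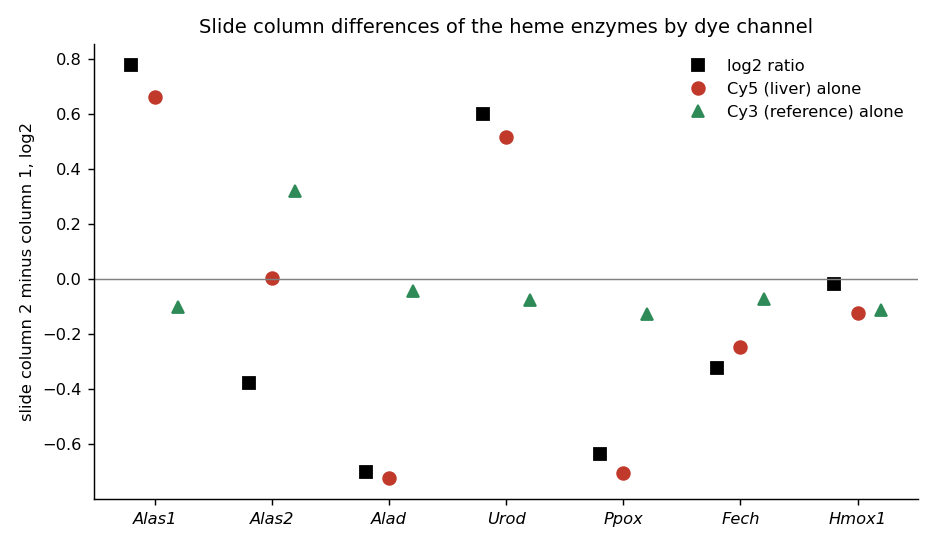
Slide column 2 minus slide column 1 on the log2 scale for the 7 tested heme enzymes, as log2 ratio (squares), liver channel Cy5 alone (circles) and reference channel Cy3 alone (triangles). Cy5 follows the log2 ratio for Alas1, Alad, Urod, Ppox and Fech, while for Alas2 Cy5 is at 0.0061 and Cy3 at 0.32.

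Further enzymes of heme breakdown were measured beside Hmox1. The constitutive heme oxygenase Hmox2 differed by 0.051 (SE 0.089), and the biliverdin reductases Blvra and Blvrb by 0.066 (SE 0.082) and 0.092 (SE 0.10). Of these 3 enzymes 0 passed, with limma adjusted p of 0.926 to 0.946.

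Among the lists read here, only that of proteins that use heme held genes past the threshold. Of 20 listed genes 19 were tested, 6 of them with an unadjusted limma p under 0.05, against 6.35% of all genes tested. Cyp2c11, 1 of these 6, was well above background on 4 of 4 0.5MAhR arrays and 0 of 4 Control arrays. It therefore entered the test through the group where it was higher. The list takes in the P450 reductase Por, which serves P450s but carries no heme itself. Of the 19 tested genes 11 were higher and 8 lower in 0.5MAhR livers, and the median over the list was 0.013. The P450 Cyp2d1, also 1 of the 6 with an unadjusted limma p under 0.05, differed by -0.41 (SE 0.11, adjusted p = 0.417). The threshold was passed by 3 of the 19, all higher in 0.5MAhR livers. The 3 are among the 5 genes that passed over the whole array, and they were listed with those calls known. Cyp1a1, the P450 induced through the AhR, was 4.15, 4.84, 5.27 and 5.47 in 0.5MAhR pools 1 to 4, against 1.02, 0.30, 0.71 and 1.55 in Control pools 5 to 8. Its difference was 4.04 (SE 0.31, limma adjusted p = 0.00283), and it passed in all 8 fits that left out 1 array. The size of this difference is less certain than its SE shows. The Cyp1a1 probe was well above background on 0 of 8 arrays in Cy3 and on 3 of 4 Control arrays in Cy5. Its net Cy5 signal was 388.7 to 1221.2 units on 0.5MAhR arrays and 13.1 to 75.9 on Control arrays. The Cyp1a1 difference was 3.07 with median centring, 3.10 in Cy5 alone and 5.20 with processed signals. Cyp1a1 did not pass with slide row as a block (adjusted p = 0.159), with the scanner software's processed signals (adjusted p = 0.1004) or in column 2 alone (adjusted p = 0.201). Cyp2b2, the phenobarbital-type P450 induced through CAR, the receptor that also raises Alas1, was 7.36, 6.55, 7.54 and 7.01 in 0.5MAhR pools, against 5.13, 6.02, 4.15 and 5.03 in Control pools. The difference of Cyp2b2 was 2.04 (SE 0.25, adjusted p = 0.0299). Every 0.5MAhR array lay above every Control array for both P450s, whereas the groups overlapped for Alas1. Over the list the groups did not overlap for 4 of the 19 tested genes, Cyp2c11 among them, against 1.32% of all genes tested.

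Cyb5a, the heme protein cytochrome b5 that passes electrons to P450s, differed by 0.54 (SE 0.062, limma adjusted p = 0.0223), and its groups overlapped. In fits without 1 array, the adjusted p of Cyp2b2 was 0.0903, 0.130 and 0.133 without 0.5MAhR pools 1, 3 and 4, and 0.0878 and 0.114 without Control pools 5 and 8. Cyb5a passed only in the fit without 0.5MAhR pool 2 and had adjusted p of 0.0579 to 0.133 in the other 7. Without slide column in the fit, or with slide row as a block, Cyp2b2 and Cyb5a did not pass (adjusted p = 1.00 each), nor did they with a trended robust variance (adjusted p = 0.109 and 0.121). Cyp2b2 was also lost with no background correction (adjusted p = 0.0804), a normexp offset of 16 (adjusted p = 0.181) and the deposited value table (adjusted p = 0.0710). With the scanner software's processed signals, Cyp2b2 differed by 0.70 (adjusted p = 0.463), and its probe was well above background in Cy3 on 4 of 8 arrays. Cyb5a was also lost with median centring (adjusted p = 1.00) and processed signals (adjusted p = 0.1004). Within single slide columns the adjusted p was 0.298 and 0.374 for Cyp2b2, and 0.449 and 0.567 for Cyb5a. Cyp2c7, a retinol-oxidising P450, differed by 1.63 (adjusted p = 0.131), without overlap between groups, and the P450 reductase Por by -0.058 (adjusted p = 0.966). Cyp1a2, another AhR-responsive P450, differed by 0.12 in log2 ratio (adjusted p = 0.866), but each channel alone differed between groups. Cy5 alone was higher by 1.53 (limma adjusted p = 0.000134) and Cy3 alone by 1.38 (adjusted p = 0.00351). The net Cy5 signal of Cyp1a2 was 9124 to 21428 units on 0.5MAhR arrays and 3564.5 to 6638.5 on Control arrays, without overlap.

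**Figure D3:**
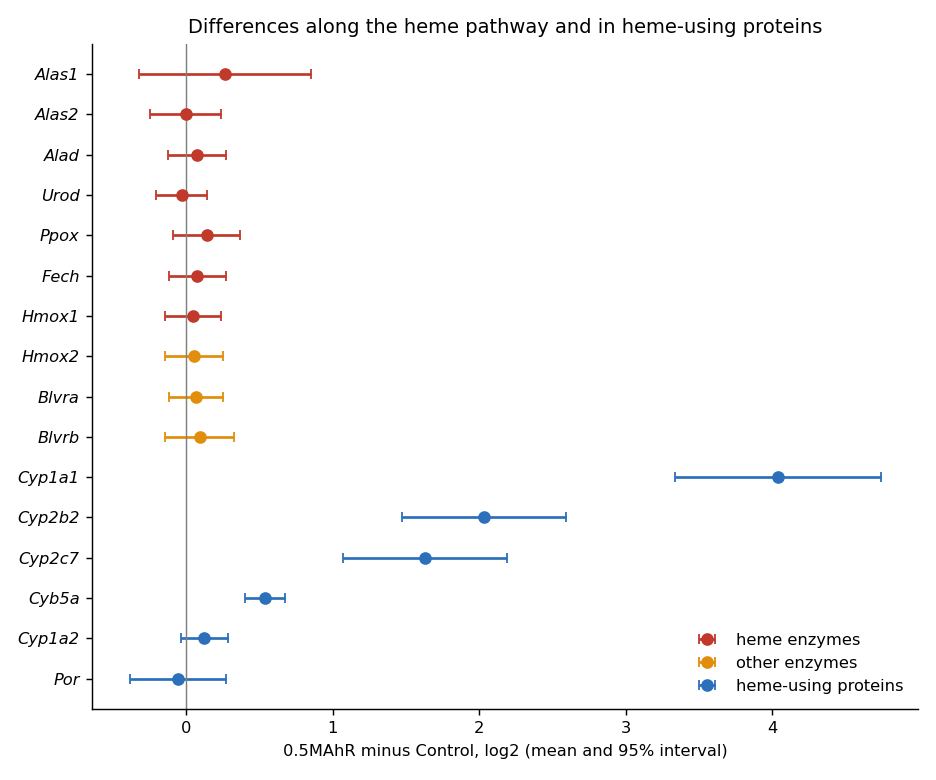
Difference between 0.5MAhR and Control livers on the log2 scale, with its 95% interval from limma. Shown are the 7 tested heme enzymes, 3 further enzymes and 6 genes of the heme-using list. Por, 1 of these 6, carries no heme itself. All intervals of the first 10 genes include 0, and Cyp1a1 and Cyp2b2 lie at 4.04 and 2.04.

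Heme and porphyrin transport and mitochondrial supply were represented by 16 tested genes of 20 listed, of which 6 were higher, 10 lower and 0 past the threshold (median -0.056). Of the 16, 2 had an unadjusted limma p under 0.05, against 6.35% of all genes tested. Pgrmc1, a heme-binding membrane protein that partners P450s and ferrochelatase, had the smallest p of the list and differed by 0.37 (SE 0.079, limma adjusted p = 0.290; 0.23 in column 1, 0.51 in column 2). Tmem14c, an importer of protoporphyrinogen into mitochondria of erythroid cells, differed by 0.19. The mitochondrial carrier Slc25a39 differed by 0.10 and the lysosomal heme exporter Slc48a1 by 0.11 (limma adjusted p = 0.862 for Slc48a1). The groups did not overlap for 1 of the 16, namely Slc48a1, against 1.32% of all genes tested. Of 5 scavengers of plasma heme and hemoglobin 1 was higher and 4 were lower, 0 past the threshold: hemopexin (Hpx) differed by -0.17, haptoglobin (Hp) by -0.22, the alpha-1-microglobulin precursor Ambp by -0.16 and the hemopexin receptor Lrp1 by -0.14. Hpx, Hp and Ambp are secreted by hepatocytes. The hepatocyte markers had a median difference of -0.15, and their part in these differences was not tested.

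Regulators of Alas1 and Hmox1 gave 8 tested genes of 12, 6 higher, 2 lower and 0 past the threshold (median 0.083). Of the 8, 2 had an unadjusted limma p under 0.05, against 6.35% of all genes tested. Nfe2l2, which encodes the stress factor NRF2, differed by 0.30 (SE 0.099, limma adjusted p = 0.598), the clock repressor Nr1d1 by 0.36 (adjusted p = 0.730) and the small Maf protein Mafg, a partner of NRF2, by 0.14. Nr1d1 was well above background on 3 of 4 0.5MAhR arrays and 1 of 4 Control arrays, and so entered the test through the group where it was higher. Nr1i2, which encodes PXR, differed by -0.11. Ppargc1a, an activator of Alas1, and Bach1, a repressor of Hmox1, were well above background in Cy5 on 0 of 8 arrays. Of 15 iron-handling genes 13 were tested, 7 higher, 6 lower and 0 past the threshold (median 0.0061). Of the 13, 2 had an unadjusted limma p under 0.05, against 6.35% of all genes tested. The endosomal ferrireductase Steap3 had the smallest p, with -0.33 (SE 0.088, adjusted p = 0.417), the ferritin chains Ftl1 and Fth1 differed by 0.20 and -0.17, transferrin (Tf) by -0.12 and the transferrin receptor Tfrc by 0.0061.

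**Figure D4:**
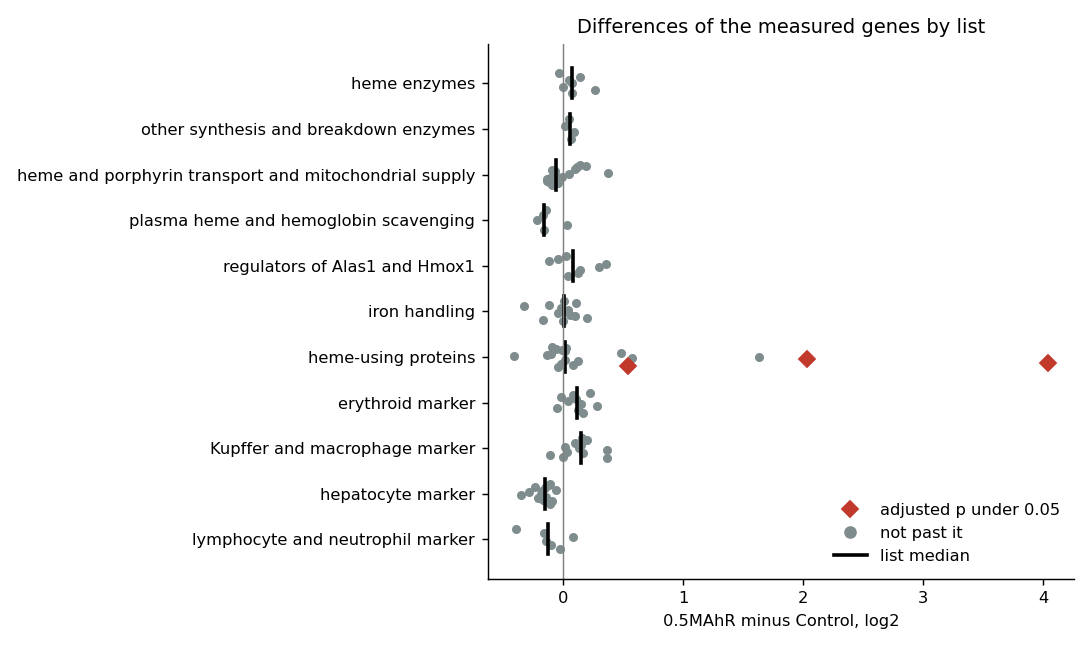
Difference between 0.5MAhR and Control livers on the log2 scale for each tested gene of the heme enzymes and the other lists, with a black bar at the list median. Red diamonds are the 3 genes past an adjusted p of 0.05, all among the heme-using proteins. The heme enzymes lie between -0.033 and 0.26.

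The genes whose pattern over the arrays was most like that of 3 members were found by Pearson's r over 8 arrays, after the mean of each slide column was subtracted, among 6937 named genes. For Alas1 these were Cog1 (r = 0.977), Tp53rkb (0.962), Hic1 (0.951), Cygb (0.923) and Etv5 (0.916). Cog1, Tp53rkb, Hic1, Cygb and Etv5 were all higher on Control pool 6 than on the other Control arrays, as Alas1 was. Because these genes were chosen for likeness to Alas1, this is not a separate result. For Alas2 they were Tmem176a (0.987), Cfap97 (0.981), Anapc2 (0.978), Ephx2 (0.969) and Zfp36l1 (0.966), with no gene of the erythroid list among them. For Hmox1 they included Mgme1 (0.959), Il16 (0.958), 2810025M15Rikl (0.936) and Kif22 (0.927). These are among the highest of 6937 values each, over 8 arrays that share slide and reference, and none of the genes named here differed between the groups past the threshold.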

How the data were processed

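Liver RNA arrays with a reference channel were read by Agilent Feature Extraction, version 11.0.1.1 per the file headers. Deposited intensity values, namely median spot and background signals of each channel, were used. The deposited log2 ratio table, of which the sources used here give no processing steps, correlated with r of 0.997 to 0.998 with unsubtracted loess ratios (slope 0.995 to 1.00, column medians -0.0389 to -0.0326) and served as an alternative. Its centring stays unknown.

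Analysis used limma 3.58.1 (R 4.3.3). Signals were background-corrected by normexp (offset 50) and arrays were normalised by loess, control spots having no weight. Outlier spots were dropped and the remaining spots averaged per probe. Of 30367 probes, 18005 were named through RefSeq accessions (GRCr8, names only). Probes well above background in Cy5, on most of their spots, on at least 3 arrays of a group were tested, the brightest per gene, giving 10567 genes. lmFit and eBayes were fitted to group and slide column, with Benjamini-Hochberg adjustment over all genes, two-sided. The array position in the header gives the slide column. The fit was tested on simulated data. Alternatives varied background correction, normalisation, channel, detection filter, variance model, slide terms, probe summary and single arrays.

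Members and lists were chosen with earlier results of these data known. Named list genes were a fixed set, those past the threshold, and up to 4 per list with the smallest p. For Alas1, Alas2 and Hmox1 the 5 genes most like them were added. Some genes that this rule names are not reported here.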

Additional observations from a re-analysis of the deposited data

Results flagged for a closer look

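Chance would flag about 1 in 20 groups of 4 arrays if their values were independent and alike. The groups here share 8 arrays and mix 2 slide columns, so their own rate was not determined. Over 104 such groups, 7 held an array far from the other 3. Hmox1 was at -0.94 on Control pool 8, against -0.78 to -0.76 on the other Control arrays. Steap3 was at 0.86 on Control pool 6, against 1.19 to 1.22. The macrophage markers Cd5l and Vsig4 were at 2.89 and 0.27 on Control pool 5, against 3.53 to 3.57 and 0.45 to 0.47 on the others, and Adgre1 was at 2.34 on 0.5MAhR pool 3, against 1.63 to 1.74. Nr1d1 was at 0.16 on 0.5MAhR pool 2, against 0.79 to 0.88 on the other 0.5MAhR arrays, and at 0.72 on Control pool 8, against 0.12 to 0.22 on the other Control arrays.

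The reference channel, which by the labels held the same RNA on all arrays, differed between groups at the Cyp1a2 probe, by 1.38 on the log2 scale (0.5MAhR minus Control). Cy3 was also higher at the probes of the P450s Cyp2a1, by 0.39, and Cyp2b2, by 0.31, short of the threshold (limma adjusted p = 0.0552 each). No tested heme enzyme showed such a difference in Cy3.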

How the results depend on the processing

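No tested heme enzyme passed the threshold under any of the alternatives run. Alas1, Alad and Ppox kept a positive difference in all of them, the 8 fits without 1 array included. Directions of the small differences turned as follows: with median centring to 0.011 for Alas2 and 0.026 for Urod, in Cy5 alone to 0.053 for Alas2 and 0.017 for Urod, in slide column 1 alone to 0.22 for Alas2, 0.026 for Urod and -0.0079 for Hmox1, and in column 2 alone to -0.057 for Fech. The causes were not tested. Leaving out each array in turn gave 0.019 to 0.55 for Alas1, -0.070 to 0.095 for Alas2, 0.016 to 0.13 for Alad, -0.073 to 0.014 for Urod, 0.034 to 0.22 for Ppox, 0.027 to 0.15 for Fech and -0.019 to 0.089 for Hmox1. The direction turned for Alas2 without 0.5MAhR replicate 1 or Control replicate 6 or 8, for Urod without 0.5MAhR replicate 1 or Control replicate 6, and for Hmox1 without 0.5MAhR replicate 3 or Control replicate 8. Fech was not tested where detection on all 8 arrays was asked. Without the filter on dim probes, Uros differed by 0.0099 (limma adjusted p = 0.997) and Cpox by 0.028 (adjusted p = 0.994).

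The count of 5 genes over the array was 1 without slide column in the fit, 0 with slide row as a block (76 at an unadjusted p under 0.05 in limma) or with processed signals (860), 3 with median centring, with detection on all 8 arrays or with a trended robust variance, 14 in Cy5 alone, and 1 to 11 without single arrays: 1 without 0.5MAhR replicate 3 or 4 or Control replicate 5, 2 without 0.5MAhR replicate 1 or Control replicate 6 or 8, 8 without Control replicate 7 and 11 without 0.5MAhR replicate 2. The 3 genes called in the heme lists became 1 without slide column in the fit. Replicate numbers are the pool numbers. No paired analysis by replicate number was possible because Control pools are numbered 5 to 8 and 0.5MAhR pools 1 to 4. The slide row block above pairs 1 array of each group by position on the slide only. Signal over background limits Uros, Cpox and Fech.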
